A study of Rattus norvegicus with 18 samples.

Results

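Heat shock proteins and their partner chaperones were followed in the amygdala, hippocampus and cortex of rats after chronic immobilization stress and in handled rats. The members are the genes whose symbol begins with Hspa, Hspb, Hspd, Hspe, Hsph, Dnaja, Dnajb or Dnajc, or is Cct2, Cct3, Cct4, Cct5, Cct6a, Cct7 or Cct8. The platform's annotation paired 105 probe sets with exactly 1 such symbol. They covered 69 of the 14217 genes named on the array, and each gene was followed by its probe set of highest mean over all 18 arrays. Of the 69 members, 61 had a mean at or above the 40th percentile of all probe sets and were tested. The other 8 (Dnajb3, Dnajb7, Dnajc22, Hspa12b, Hspa1l, Hspb2, Hspb3 and Hspb9) were too dim.

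Total RNA of Rattus norvegicus was measured in 6 groups of 3 arrays. These were stress and handled amygdala, stress and handled hippocampus, and stress and handled cortex. Stress means chronic immobilization, and the handled animals served as controls without stress. The labels name no stress schedule, strain, age or sex. Nor do they say that each array had its own animal, so the p-values reflect variation among these hybridizations alone, some of which could be technical.

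Region was taken from the titles, because a further label named the amygdala for every array. Among handled arrays, 6 of 6 tested neocortex markers were lower in hippocampus than in cortex, and 4 of 4 amygdala markers were higher in amygdala than in hippocampus. Between amygdala and cortex, 3 of 4 amygdala markers were higher in amygdala and 3 of 6 neocortex markers lower. Of 6 hippocampal markers, 4 were higher and 2 lower in hippocampus than in cortex. The median intensity per array ran from 49.1 to 56.4. Of 77 tested cell-type and region markers, 4 differed between stress and handled arrays in amygdala (5.19%), 6 in hippocampus (7.79%) and 7 in cortex (9.09%), against 2.4%, 0.36% and 0.403% of all probe sets. In cortex 6 of the 7 were meningeal fibroblast markers, all lower after stress.

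Chaperones bind unfolded proteins and help them fold, cross membranes or be degraded. HSP70 proteins do this in cycles of ATP hydrolysis that J proteins (the HSP40 or Dnaj families) start and that HSP110 proteins and other exchange factors reset. HSP60 with its lid HSP10 works in mitochondria, and the CCT ring folds actin and tubulin in the cytosol. Heat and other protein-damaging stress induce many of these genes through the transcription factor Hsf1, which binds heat shock elements. Unfolded protein in the endoplasmic reticulum induces another set through Atf6, Xbp1 and Atf4. In neurons, J proteins such as Dnajc5 and Dnajc6 also serve synaptic vesicles.

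The upstream sequences of members on which such elements could be read are shown because the stress comparison bears on inducible genes. RefSeq (build GRCr8) gave an upstream sequence for 58 of the 69 members. The 250 bases before the start site were searched on both strands for the letters GAANNTTC and TTCNNGAA, which are pairs of heat shock units, and for joined triplets of units, GAANNTTCNNGAA or TTCNNGAANNTTC, which contain those pairs. They were also searched for the endoplasmic reticulum stress element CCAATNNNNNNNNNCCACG. A joined triplet lay upstream of 3 of the 58 members (5.17%), Hspd1, Hspe1 and Hsph1, and of 0.597% of 27457 genes. GAANNTTC lay upstream of 11 members (19%) and 7.02% of genes, and TTCNNGAA upstream of 8 members (13.8%) and 7.23% of genes. The endoplasmic reticulum element lay upstream of Hspa5 and Dnajc3 (3.45% of members) and of 0.0765% of genes. A match is only a description of the letters. Hspd1 and Hspe1 are read away from each other from start sites 290 bases apart on chromosome 9, so they share a single run of heat shock units. It is shown on the Hspe1 strand, chr9:64084256-64084285, plus strand, with the units in capitals. The other windows hold 250 bases each: Hsph1 at chr12:10427118-10427367, plus strand, with heat shock units in capitals; Hspa5 at chr3:38452766-38453015, plus strand, with the endoplasmic reticulum element in capitals; and Dnajb14 at chr2:229032165-229032414, plus strand, which holds none of these letters and is shown because the stress result turns on it.
Hspe1 and Hspd1: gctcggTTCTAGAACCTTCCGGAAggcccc
Hsph1: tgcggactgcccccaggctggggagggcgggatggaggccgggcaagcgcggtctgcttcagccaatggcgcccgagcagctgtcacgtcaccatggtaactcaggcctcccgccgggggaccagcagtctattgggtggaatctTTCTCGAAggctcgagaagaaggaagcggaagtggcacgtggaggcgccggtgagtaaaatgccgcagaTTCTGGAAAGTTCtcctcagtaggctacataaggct
Hspa5: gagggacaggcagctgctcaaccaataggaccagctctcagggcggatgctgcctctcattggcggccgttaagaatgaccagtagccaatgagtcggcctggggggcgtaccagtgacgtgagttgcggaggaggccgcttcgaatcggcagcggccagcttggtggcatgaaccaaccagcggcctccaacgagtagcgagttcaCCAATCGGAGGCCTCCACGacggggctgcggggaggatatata
Dnajb14: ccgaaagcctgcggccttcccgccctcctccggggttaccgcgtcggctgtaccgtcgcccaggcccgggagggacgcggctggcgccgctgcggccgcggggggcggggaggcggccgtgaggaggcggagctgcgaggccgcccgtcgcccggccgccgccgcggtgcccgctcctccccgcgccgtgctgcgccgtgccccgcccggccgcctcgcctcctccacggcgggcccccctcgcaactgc

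Few chaperone transcripts passed the test after chronic immobilization. In amygdala 1 of 61 members passed the test, Dnajb14, which fell (1.94% of all probe sets fell there). In hippocampus and in cortex 0 of 61 passed. The test was limma with Benjamini-Hochberg adjustment over all 18625 probe sets past the filter, with a threshold of 0.05 on the adjusted p, fitted to log2 of the intensity plus 16. In the same comparisons 2.4% of all probe sets passed in amygdala, 0.36% in hippocampus and 0.403% in cortex. At an unadjusted p under 0.05, 4 members were found in amygdala, 3 in hippocampus and 4 in cortex, which is 6.56%, 4.92% and 6.56% of the members. Among all 10256 named genes tested, those shares were 12.8%, 11% and 10.7%. The median change of the members on the log2 scale was 0.02 in amygdala, -0.01 in hippocampus and 0.02 in cortex, beside 0.01, 0.00 and 0.00 over all probe sets.

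**Figure D1:**
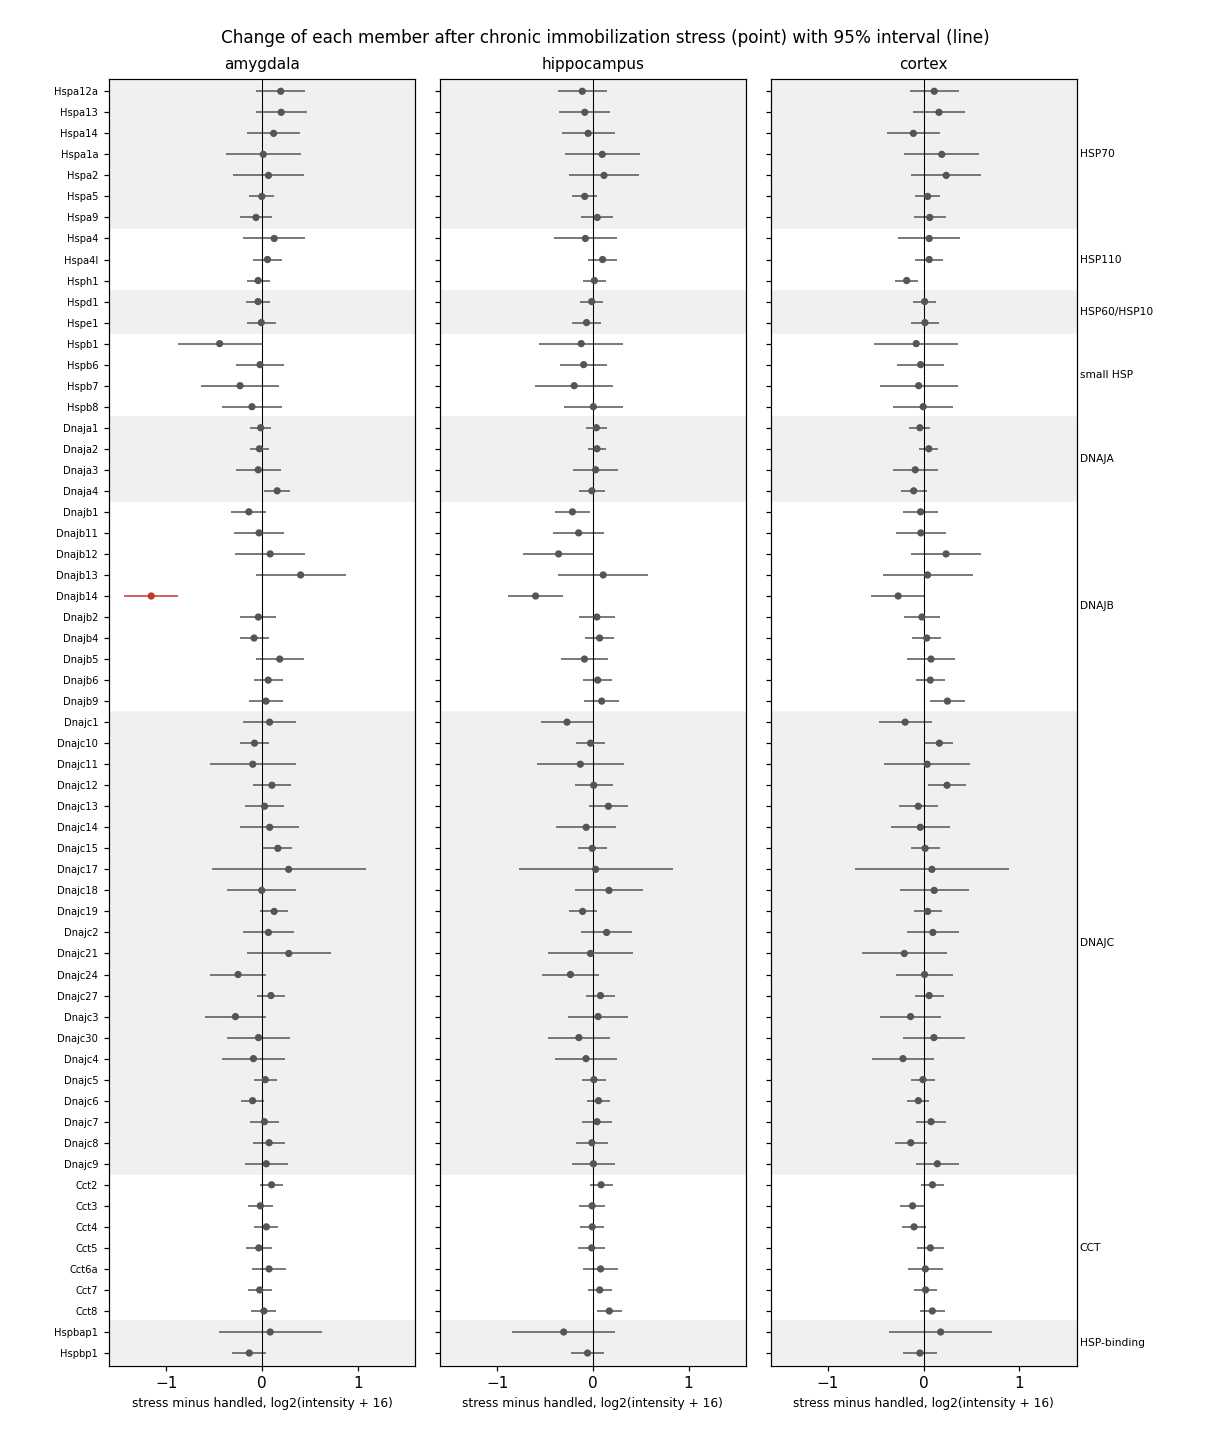
Change of each of the 61 tested members after stress in the 3 regions, as stress minus handled on the log2(intensity + 16) scale, with points for the estimate and lines for its 95% interval (n = 3 arrays per group). Dnajb14 in amygdala, at -1.16 and drawn in red, is the only point that passed the test. Most other points lie close to 0.

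Stress and handled arrays did not overlap for 7 members in amygdala (11.5%), 7 in hippocampus (11.5%) and 11 in cortex (18%), against 16.6%, 14.2% and 23.3% of all probe sets. The 95% interval of the stress change stayed within 1.5-fold in either direction for 53 of 61 members in amygdala, 56 in hippocampus and 56 in cortex. It stayed within 2-fold for 59, 61 and 61 members. The bounds lay a median of 0.196 from the estimate on the log2 scale. The widest interval was that of Dnajc17, whose group means were 37.9 or less.

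Dnajb14 encodes a J protein anchored in the membrane of the endoplasmic reticulum, where it works with HSP70 in the handling of misfolded membrane proteins. Its probe set 1384376_at read 131, 126 and 185 on the stress amygdala arrays, against 311, 328 and 397 on the handled amygdala arrays. All stress arrays lay below all handled arrays. On the log2 scale the change was -1.16 ± 0.14 (SE), or 0.448 times the handled value after 16 is added to both, with an adjusted p of 4.25e-05 from limma.

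In hippocampus Dnajb14 read 186, 163 and 156 after stress, against 296, 269 and 227 in handled arrays. The groups again did not overlap, but the change of -0.60 ± 0.14 had a limma adjusted p of 0.0591 and did not pass. That p fell below the threshold, to between 0.0266 and 0.0493, when any of the stress amygdala arrays or handled hippocampus array 3 was left out. In cortex the readings were 162, 208 and 147 after stress, against 214, 212 and 199.6 in handled arrays, and the highest stress array lay among the handled ones. The cortical change was -0.27 ± 0.14 (limma adjusted p = 0.524).

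Averaged over the 3 regions, Dnajb14 was the only one of the 61 members to pass (-0.67 ± 0.08, limma adjusted p = 1.52e-05), where 4.66% of all probe sets passed. The difference between regions was tested directly. The stress change of Dnajb14 was more negative in amygdala than in cortex by -0.89 ± 0.19, with a limma adjusted p of 0.0799. Against hippocampus the difference was -0.56 ± 0.19 (limma adjusted p = 0.439). None of the 61 members passed in any of the 3 differences between regions, in which 0.0483%, 0.129% and 0.0859% of all probe sets passed. At an unadjusted p under 0.05, 2 members were found between amygdala and hippocampus, 3 between amygdala and cortex and 2 between hippocampus and cortex, against 7.95%, 9.44% and 5.97% of named genes. The amygdala against cortex difference of Dnajb14 did pass, with an adjusted p of 0.0108, when stress amygdala array 3 was left out.

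Dnajb14 has a further pair of probe sets, both dim. Probe set 1393996_at read 55.5, 11.96 and 43.2 in stress amygdala, against 41.1, 28.9 and 36.9 in handled amygdala, and its groups overlapped in every region. Its change was -0.06 ± 0.26 in amygdala, -0.13 ± 0.26 in hippocampus and 0.19 ± 0.26 in cortex. Probe set 1391398_at lay below the filter, between 1.07 and 17.7 on all arrays. The fall therefore rests on a single probe set. The log2 difference between the 3' and 5' control probe sets of hexokinase, a measure of RNA quality, was also higher in stress amygdala, at 1.23 ± 0.07, than in handled amygdala, at 0.83 ± 0.08 (SD, n = 3 each). For beta-actin it was 2.15 ± 0.24 in stress and 2.07 ± 0.08 in handled amygdala, and for GAPDH 0.45 ± 0.08 and 0.45 ± 0.04. Summed intensities of 7 striatal neuron markers were 3444 to 3570 in stress amygdala and 2428 to 2754 in handled amygdala. The hexokinase difference was 1.17 ± 0.15 in stress and 1.02 ± 0.11 in handled hippocampus, and 1.28 ± 0.12 in stress and 1.11 ± 0.09 in handled cortex. The part of RNA quality or of dissection in the Dnajb14 result was not tested.

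**Figure D2:**
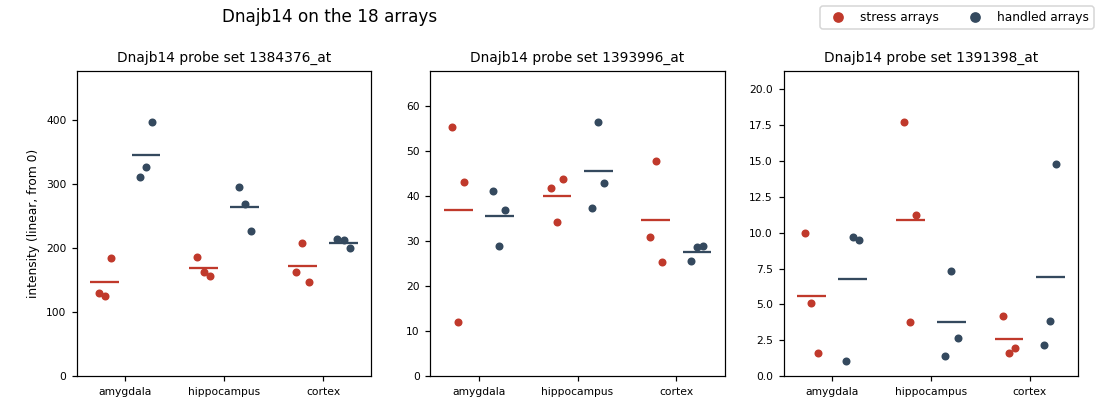
Intensity of the 3 Dnajb14 probe sets on each array, on linear axes that start at 0, with stress arrays in red and handled arrays in dark blue. Points are arrays and bars are the means of 3 arrays. The brightest probe set separates stress from handled arrays in amygdala and hippocampus, while the other panels, at 56.5 and below, show overlapping groups.

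Of the HSP70 family, 7 members were tested and 0 passed in any stress comparison. Hspa1a, the classical heat-inducible HSP70, read 56.6, 56.2 and 51.7 in stress amygdala, against 60.6, 47.2 and 55.4 in handled amygdala. In hippocampus it read 88.9, 85.9 and 89.3 after stress, against 95.3, 85.8 and 65.1 in handled arrays. In cortex it read 39.6, 44.0 and 52.4 after stress, against 54.1, 42.4 and 21.7 in handled arrays. The groups overlapped in all 3 regions, and the mean change over regions had a 95% interval from -0.13 to 0.33. Hspa5, the HSP70 of the endoplasmic reticulum and a standard marker of the unfolded protein response, changed by -0.00 ± 0.06 in amygdala, -0.09 ± 0.06 in hippocampus and 0.04 ± 0.06 in cortex. Its mean change over regions had a 95% interval from -0.09 to 0.06. Hspa9, the mitochondrial HSP70 that pulls in imported proteins, had changes between -0.06 and 0.06 on its brightest probe set. On 1391915_at it read lower in stress amygdala without overlap, at -0.56 ± 0.21 (limma adjusted p = 0.199), and on 1370690_at the change there was -0.14 ± 0.14. Hspa2 had changes of 0.07, 0.12 and 0.23 in amygdala, hippocampus and cortex on its brightest probe set. Its further probe set 1369841_at gave -0.28, -0.10 and 0.11 in the same order. The atypical members Hspa12a, Hspa13 and Hspa14 lay between -0.11 and 0.20.

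The exchange factors and the mitochondrial chaperonin gave similar values. Hsph1, a heat-inducible HSP110, read 1738, 1684 and 1619.8 in stress cortex, against 1802, 1936 and 1976 in handled cortex. All stress arrays lay below all handled arrays, with a change of -0.18 ± 0.06, yet the limma adjusted p was 0.237. Its changes were -0.04 ± 0.06 in amygdala and 0.02 ± 0.06 in hippocampus. Hspa4 and Hspa4l, of the same family, lay between -0.08 and 0.13. Hspd1, the mitochondrial HSP60, read 1987, 1823 and 1940.3 in stress amygdala, against 1986, 2124 and 1818 in handled amygdala. Its changes were -0.04 ± 0.06, -0.01 ± 0.06 and 0.01 ± 0.06 in amygdala, hippocampus and cortex. Hspe1, its HSP10 lid, had changes of -0.01 ± 0.07, -0.07 ± 0.07 and 0.01 ± 0.07. For this pair, which shares the heat shock units printed above, the mean change over regions had 95% intervals from -0.09 to 0.06 and from -0.11 to 0.07. Hspbp1, an exchange factor for HSP70, changed by -0.13, -0.06 and -0.04.

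The small heat shock proteins keep unfolded proteins soluble without ATP. On their brightest probe sets all 4 tested members had negative values in amygdala and in cortex, and 3 of 4 in hippocampus, but 0 passed. Hspb1 (HSP27) read 51.6, 56.2 and 103 in stress amygdala, against 101, 109 and 84.1 in handled amygdala, so the groups overlapped. Its change was -0.44 ± 0.21 (limma adjusted p = 0.356), with a 95% interval from -0.88 to -0.01. Hspb6 changed by -0.02, -0.10 and -0.03 in amygdala, hippocampus and cortex, and Hspb8 by -0.11, 0.00 and -0.01. The further Hspb8 probe set 1387282_at gave 0.32, 0.05 and -0.10 in the same order, and none of these passed.

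**Figure D3:**
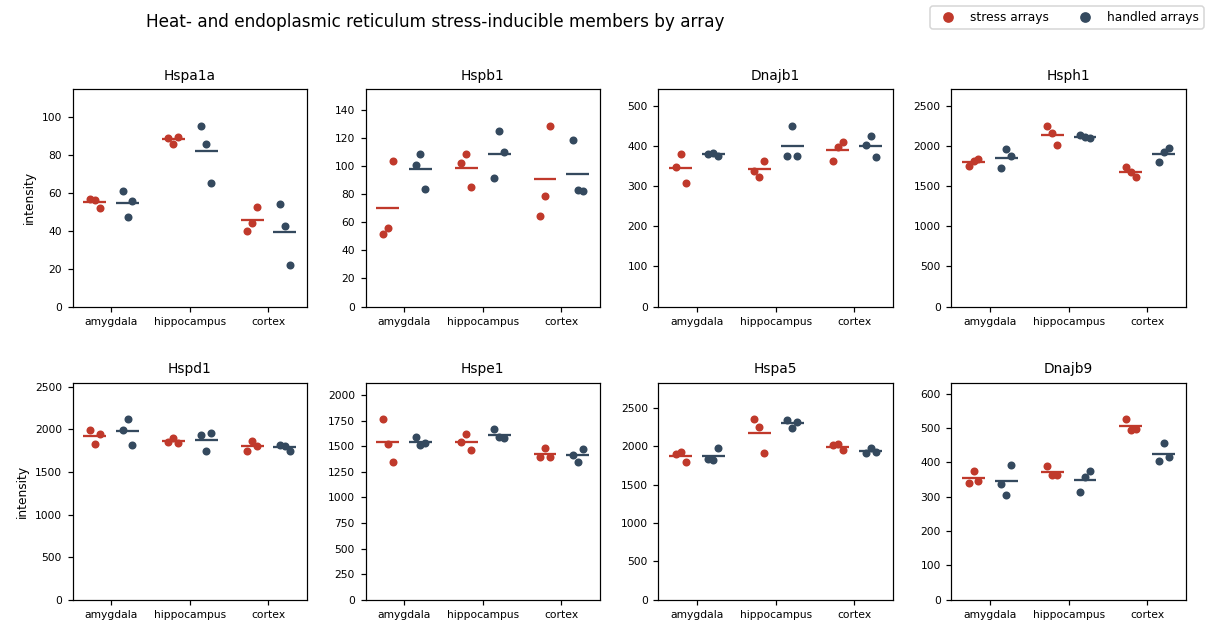
Intensity on each array of 8 members that heat or endoplasmic reticulum stress is known to induce, on linear axes that start at 0, with stress arrays in red and handled arrays in dark blue. Bars are means of 3 arrays. Stress and handled arrays overlap in most panels, and none of these members passed the stress test in any region.

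Among J proteins other than Dnajb14, none of 35 passed in a stress comparison. Dnajb1, the heat-inducible partner of HSP70, read 338, 324 and 363 in stress hippocampus, against 374, 451 and 375 in handled hippocampus. The groups did not overlap, with a change of -0.21 ± 0.09 (limma adjusted p = 0.378). In amygdala it was -0.14 ± 0.09 and in cortex -0.03 ± 0.09. Dnajb9, an inducible J protein of the endoplasmic reticulum lumen, read 527, 495 and 498 in stress cortex, against 404, 456 and 415 in handled cortex. These groups did not overlap either, with a change of 0.25 ± 0.09 (limma adjusted p = 0.297).

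The other J proteins among the 5 members of smallest p in a region also failed the adjusted test, and Dnajc3, Dnajc1 and Dnajb12 had an unadjusted p above 0.05. In cortex these were Dnajc12, a co-chaperone of aromatic amino acid hydroxylases (0.24 ± 0.09, limma adjusted p = 0.345), and Dnajc10, a reductase of the endoplasmic reticulum (0.16 ± 0.07, limma adjusted p = 0.416). In amygdala they were Dnaja4, a cytosolic J protein (0.16 ± 0.07, limma adjusted p = 0.271), Dnajc15, a J protein of the mitochondrial inner membrane (0.16 ± 0.07, limma adjusted p = 0.314), and Dnajc3, which inhibits eIF2α kinases (-0.28 ± 0.15, limma adjusted p = 0.443). In hippocampus they were Dnajc1 (-0.27 ± 0.13, limma adjusted p = 0.473) and Dnajb12 (-0.36 ± 0.18, limma adjusted p = 0.476), both anchored in the endoplasmic reticulum membrane. Dnaja1 and Dnaja2, the main cytosolic J proteins of this type, stayed between -0.04 and 0.05 in the 3 regions. Dnajc5, the cysteine string protein of synaptic vesicles, had changes between -0.01 and 0.03 on its brightest probe set, and Dnajc6 (auxilin), which uncoats clathrin vesicles, between -0.10 and 0.06. Dnajb2, a neuronal J protein, lay between -0.04 and 0.04, Dnajb4 between -0.08 and 0.07, Dnajb5 between -0.09 and 0.18, Dnajb6 between 0.05 and 0.07, and Dnajb11 between -0.15 and -0.03. On the further Dnajc5 probe set 1384001_at the changes were 0.16, 0.13 and 0.22 in amygdala, hippocampus and cortex, without overlap in cortex, and their mean was 0.17 ± 0.05 (limma adjusted p = 0.0701).

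Of the members, 19 had further probe sets past the filter, 22 in all, and 0 of these passed after stress in any region or in the mean by limma. At an unadjusted p under 0.05 there were 2 in amygdala, 0 in hippocampus, 1 in cortex and 4 for the mean. Their change had the opposite sign to the brightest probe set for 15, 11 and 13 of 22 in amygdala, hippocampus and cortex, so the direction of changes that did not pass is uncertain. Hsph1 changed by 0.17 ± 0.09 in cortex on 1385620_at. Dnaja4 changed by -0.12 ± 0.12 in amygdala on 1395572_at, and Dnajb5 by -0.38 ± 0.17 there on 1384511_at.

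All 7 listed CCT subunits were tested and 0 passed. Cct8 read 787, 711 and 803 in stress hippocampus, against 663, 681 and 691 in handled hippocampus. The groups did not overlap, with a change of 0.17 ± 0.06 (limma adjusted p = 0.303). On the further Cct8 probe set 1373784_at the change there was 0.01 (limma adjusted p = 0.978). Cct2 had values of 0.10, 0.09 and 0.09 in amygdala, hippocampus and cortex. The values of Cct3, Cct4, Cct5, Cct6a and Cct7 lay between -0.12 and 0.08 on their brightest probe sets. Further probe sets gave -0.24, -0.18 and -0.11 for Cct6a (1377006_at) and 0.14, 0.18 and 0.03 for Cct5 (1395508_at), in the same order of regions. By compartment, 1 of 10 tested members of the endoplasmic reticulum (Dnajb14), 0 of 9 of mitochondria and 0 of 7 with synaptic or clathrin roles passed in amygdala, and 0 passed in hippocampus or cortex.

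The regions themselves differed in their chaperone transcripts. Of the 61 members, 20 passed in at least 1 comparison between handled regions. Between handled amygdala and handled cortex 8 passed, 1 higher and 7 lower in amygdala (13.1% of members, where 14.7% of all probe sets passed). Between handled hippocampus and handled cortex 13 passed, 10 higher and 3 lower in hippocampus (21.3%, beside 25.9% of all probe sets). Between handled amygdala and handled hippocampus 15 passed, 3 higher and 12 lower in amygdala (24.6%, beside 28.4%). These shares are near the background of each comparison. Median centring gave 1 higher and 14 lower members in amygdala against hippocampus, and quantile normalization 2 higher and 6 lower in amygdala against cortex. By direction, 8.14% of all probe sets were higher and 6.56% lower in amygdala than in cortex, 12.2% were higher and 13.6% lower in hippocampus than in cortex, and 15.5% were higher and 12.9% lower in amygdala than in hippocampus. In such bulk tissue, fewer cells of a type and less RNA per cell cannot be told apart.

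In the hippocampus 9 members were higher than in both other regions: Dnaja1, Dnaja2, Dnaja4, Dnajb5, Dnajb13, Dnajc15, Hspa5, Hsph1 and Cct5. No member was lower there than in both others. Among the 10256 named genes, 8.3% were higher and 9.42% lower in hippocampus than in both other regions, against 14.8% and 0% of the members. These counts were set up after the values had been seen, and no test was made of the difference. The hippocampus comparisons share the handled hippocampus arrays.

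Dnaja4 had the smallest p of any member. It read 574, 572 and 546 in handled amygdala, 971, 1030.3 and 1009 in handled hippocampus and 590.4, 599.7 and 617 in handled cortex. The hippocampal arrays stood far above the other 6. The difference was 0.72 ± 0.07 for hippocampus minus cortex (limma adjusted p = 8.87e-09) and -0.81 ± 0.07 for amygdala minus hippocampus (limma adjusted p = 1.28e-09). A further Dnaja4 probe set, 1395572_at, gave 0.70 ± 0.12 and -0.80 ± 0.12, and both passed.

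Dnaja1 read 1355, 1366 and 1356 in handled amygdala, 1704, 1739 and 1909.6 in handled hippocampus and 1514, 1589 and 1608 in handled cortex. The 3 regions did not overlap, with differences of -0.39 ± 0.05 (amygdala minus hippocampus), -0.21 ± 0.05 (amygdala minus cortex) and 0.18 ± 0.05 (hippocampus minus cortex), and all 3 passed. The call between hippocampus and cortex was lost in 4 of 26 alternative fits. The further Dnaja1 probe set 1368852_at was lower in amygdala than in both others but gave 0.01 ± 0.06 for hippocampus minus cortex (limma adjusted p = 0.941). Dnajc15 gave the same order, at 251, 261 and 279 in handled amygdala, 417, 415 and 419 in handled hippocampus and 352, 319 and 315 in handled cortex. Its amygdala minus hippocampus difference was -0.63 ± 0.07 (limma adjusted p = 4.34e-07). Dnaja2 differed by 0.15 ± 0.05 between hippocampus and cortex (limma adjusted p = 0.0222), a call lost in 6 of 26 alternative fits. Of the 4 tested Dnaja members, 3 were higher in hippocampus than in cortex and 3 were lower in amygdala than in hippocampus.

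**Figure D4:**
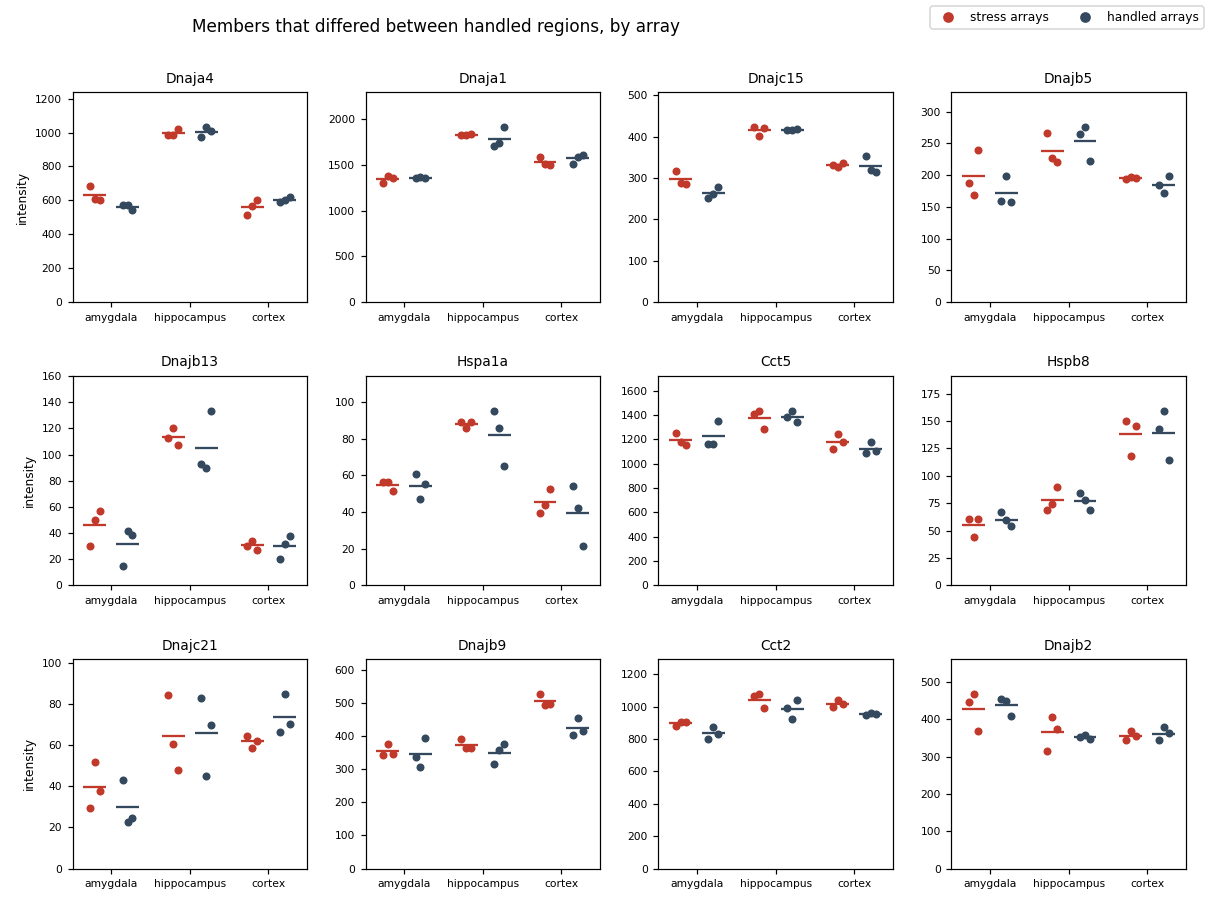
Intensity on each array of 12 members that passed in at least 1 comparison between handled regions, on linear axes that start at 0, with stress arrays in red and handled arrays in dark blue. Bars are means of 3 arrays. Dnaja4, Dnajb13 and Hspa1a stand highest in hippocampus and Hspb8 in cortex, in stress as in handled arrays.

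Dnajb13, a J protein of the radial spokes of motile cilia and sperm tails, had the largest difference of any member. It read 14.98, 41.5 and 38.2 in handled amygdala, 92.6, 89.6 and 134 in handled hippocampus and 20.2, 31.4 and 37.6 in handled cortex. All hippocampal arrays lay above the other 6, by 1.41 ± 0.23 over cortex (limma adjusted p = 4e-05), while amygdala minus hippocampus was -1.38 ± 0.23 (limma adjusted p = 5.02e-05). Markers of choroid plexus and ependyma, which carry cilia, also had their highest summed intensity in handled hippocampus. Unlike Dnajb13 (0.02 ± 0.23 for amygdala minus cortex), this sum was also higher in amygdala than in cortex. Single markers were mixed. For amygdala minus cortex 4 of the 6 tested markers lay above 0 and 2 below, and 2 of the positive values passed. For hippocampus minus cortex 5 lay above 0 and 1 below, and 3 of the positive values passed. For amygdala minus hippocampus 1 lay above 0 and 5 below, and 2 of the negative values passed. The summed intensity of 7 such markers was 719 to 744 in handled amygdala, 1391 to 1536 in handled hippocampus and 204 to 266 in handled cortex. In stress hippocampus that sum was 3686 to 3901, and 2 of the 6 tested markers passed as higher than in handled hippocampus. Dnajb13 read 112, 120.0 and 107 there, with a stress change of 0.11 ± 0.23. The part of such cells in the Dnajb13 difference was not tested.

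Hspa1a was higher in hippocampus than in cortex by 0.86 ± 0.19 (limma adjusted p = 0.00131), with 95.3, 85.8 and 65.1 in handled hippocampus against 54.1, 42.4 and 21.7 in handled cortex. Hspa5 was higher in hippocampus than in cortex by 0.24 ± 0.06 (limma adjusted p = 0.00508), and amygdala minus hippocampus was -0.29 ± 0.06 (limma adjusted p = 0.000957). Dnajb5, a cytosolic J protein, read 159, 198 and 157 in handled amygdala, 264, 275 and 222 in handled hippocampus and 184, 172 and 199 in handled cortex. It was higher in hippocampus than in cortex by 0.42 ± 0.12 (limma adjusted p = 0.0103), and of its further probe sets 1384511_at passed with 0.51 while 1375762_at, at 0.26 ± 0.28, did not. Cct5 was higher in hippocampus than in cortex by 0.30 ± 0.07 (limma adjusted p = 0.00148). Hsph1 was higher there by 0.16 ± 0.06 (limma adjusted p = 0.0497), close to the threshold, and this call was lost in 17 of 26 alternative fits. Its further probe set 1385620_at passed with 0.40 ± 0.09 (limma adjusted p = 0.00258).

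Hspb8, a small heat shock protein that works with Bag3 in autophagy of misfolded proteins, had the opposite pattern and was highest in cortex. It read 66.6, 59.6 and 53.8 in handled amygdala, 84.2, 77.9 and 69.1 in handled hippocampus and 143, 159.6 and 115 in handled cortex. All cortical arrays lay above all others. The differences were -1.02 ± 0.15 for amygdala minus cortex (limma adjusted p = 3.48e-05) and -0.73 ± 0.15 for hippocampus minus cortex (limma adjusted p = 0.000664). The further Hspb8 probe set 1387282_at gave -0.92 ± 0.24 for amygdala minus cortex and passed, while its -0.58 ± 0.24 for hippocampus minus cortex did not (limma adjusted p = 0.075). Summed intensities of 8 meningeal fibroblast markers were 1059 to 1167 in handled amygdala, 1946 to 2125 in handled hippocampus and 4354 to 4589 in handled cortex. In stress cortex that sum was 1945 to 1978. Hspb8 read 149.7, 118 and 146 there, a change of -0.01 ± 0.15 from handled cortex. The part of meningeal tissue in the Hspb8 difference was not tested. Dnajb9 was also higher in cortex than in both others, at -0.29 ± 0.09 for amygdala minus cortex (limma adjusted p = 0.0258) and -0.27 ± 0.09 for hippocampus minus cortex (limma adjusted p = 0.024), calls lost in 5 and 2 of 26 alternative fits.

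Low values in handled amygdala were shared by Dnajc21, a J protein of ribosome assembly, and by Cct2. Dnajc21 read 42.8, 22.6 and 24.8 in handled amygdala, 82.8, 45.1 and 69.9 in handled hippocampus and 66.2, 84.9 and 70.3 in handled cortex. Its differences were -0.83 ± 0.21 for amygdala minus hippocampus and -0.98 ± 0.21 for amygdala minus cortex, and both passed (limma adjusted p = 0.00486 and 0.00236). Cct2 differed by -0.23 ± 0.06 and -0.19 ± 0.06 in the same comparisons (limma adjusted p = 0.00434 and 0.0313), and the call against cortex was lost in 7 of 26 alternative fits. Dnajb4 was lower in amygdala than in cortex, at -0.24 ± 0.07 (limma adjusted p = 0.026), a call lost in 5 of 26 alternative fits. Dnajc14, of the endoplasmic reticulum membrane, was lower in amygdala than in hippocampus, at -0.45 ± 0.15 (limma adjusted p = 0.0262), while its further probe set 1373402_at gave -0.19 ± 0.11 and did not pass.

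Dnajb14 was higher in handled amygdala than in handled cortex by 0.68 ± 0.14 (limma adjusted p = 0.00127) and than in handled hippocampus by 0.37 ± 0.14 (limma adjusted p = 0.0485). The call against hippocampus was lost in 16 of 26 alternative fits. The further Dnajb14 probe set 1393996_at gave 0.23 ± 0.26 against cortex and, with the opposite sign, -0.25 ± 0.26 against hippocampus, and neither passed. Dnajb2 was higher in amygdala than in hippocampus by 0.30 ± 0.09 (limma adjusted p = 0.0164). Dnajc7, a cytosolic J protein that also binds HSP90, was higher there by 0.23 ± 0.07 (limma adjusted p = 0.0228). Dnajc2, a ribosome-bound J protein, was lower in hippocampus than in cortex, at -0.43 ± 0.13 (limma adjusted p = 0.0162). Of the 15 members that passed between amygdala and hippocampus, Cct5 (-0.18 ± 0.07, limma adjusted p = 0.0475) was also lost in 16 of 26 alternative fits. Where probe sets of a gene went apart, as for Hspa9, whose other probe sets gave -0.40 ± 0.14 and 0.61 ± 0.21 for amygdala minus hippocampus, the direction is uncertain.

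The stress arrays were compared between regions after the handled values had been seen. Their group means share no array with the handled comparisons, but the spread behind both sets of p-values was estimated from all 18 arrays. The stress arrays gave the same regional differences for most of these members. Between stress hippocampus and stress cortex, 13 of the 13 members kept their sign and 11 passed. Between stress amygdala and stress cortex, 7 of 8 kept their sign and 5 passed. Between stress amygdala and stress hippocampus, 14 of 15 kept their sign and 10 passed. These members were picked because they passed in handled arrays, so their counts cannot be set beside the share of all probe sets. Of all 61 members, 15, 7 and 16 passed in these comparisons of stress arrays, in the same order. The shares of all probe sets that passed were 25.3%, 19.8% and 27.8%. The exception in sign in both amygdala comparisons was Dnajb14, at -0.21 ± 0.14 against cortex and -0.19 ± 0.14 against hippocampus in stress arrays. Dnaja4 gave 0.82 ± 0.07 for stress hippocampus minus stress cortex, Dnajb13 gave 1.48 ± 0.23, Hspa1a 0.77 ± 0.19 and Hspb8 -0.72 ± 0.15, and all 4 passed. Hspa5 (0.12 ± 0.06) and Dnajb5 (0.26 ± 0.12) did not pass there. Between amygdala and cortex Dnajb14, Dnajc15 and Dnajc21 did not pass. Between amygdala and hippocampus Dnajb14, Dnajb2, Dnajb5, Dnajc14 and Dnajc21 did not.

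Other genes of the chaperone network were read from a list of 70 that do not match the symbols of the members: the HSP90 machine, HSP70 partners, heat shock factors and their further targets, prefoldin, and helpers of the endoplasmic reticulum and mitochondria. Of these, 64 were tested. In amygdala 0 were higher and 1 was lower after stress, and in hippocampus and cortex 0 passed. At an unadjusted p under 0.05 there were 11 in amygdala (17.2%), 6 in hippocampus (9.38%) and 8 in cortex (12.5%), against the 12.8%, 11% and 10.7% of named genes. Averaged over regions, 1 was higher and 2 were lower (4.69%, against 4.66% of all probe sets).

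Atf6, the membrane-bound transcription factor of the unfolded protein response, was the gene lower in amygdala. Its probe set 1392475_at read 86.7, 78.8 and 66.4 in stress amygdala, against 145, 124 and 122 in handled amygdala. The groups did not overlap, and the change was -0.65 ± 0.13 (limma adjusted p = 0.00522). In hippocampus it read 93.0, 72.2 and 89.1 after stress, against 123, 119 and 124 in handled arrays, a change of -0.46 ± 0.13 (limma adjusted p = 0.138). In cortex it read 69.9, 76.2 and 86.6 after stress, against 117, 114 and 103 in handled arrays, a change of -0.45 ± 0.13 (limma adjusted p = 0.162). The groups did not overlap in any region, and the mean change was -0.52 ± 0.07 (limma adjusted p = 0.000127). Its further probe set, 1384957_at, was dim, at 2.78 to 34.3, and was not tested. The fit to the amygdala arrays alone gave -0.65 with a limma adjusted p of 0.0658. The hexokinase values given for Dnajb14 apply here too, and their part was not tested. The targets of Atf6 with an endoplasmic reticulum element, Hspa5 and Dnajc3, had mean changes of -0.02 ± 0.04 and -0.12 ± 0.09. Of the 16 tested endoplasmic reticulum genes on the list, Atf6 among them, 5 had an unadjusted limma p under 0.05 in amygdala. The counts were 2 in hippocampus and 1 in cortex, and 12.8%, 11% and 10.7% of named genes reached that p in the 3 regions. In amygdala 10 of the 16 changes lay above 0 and 6 below, and for the mean 6 lay above and 10 below.

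Cryab (αB-crystallin), a small heat shock protein abundant in glia, was lower over the 3 regions, at -0.34 ± 0.07 (limma adjusted p = 0.00259). It read 341, 309 and 292 in stress hippocampus, against 388, 451 and 473 in handled hippocampus, and the groups did not overlap. Summed intensities of 9 oligodendrocyte markers were 17649 to 20036 in stress hippocampus and 20695 to 23225 in handled hippocampus, and their part in this result was not tested. In cortex Cryab read 143, 151 and 172 after stress, against 189, 177 and 195 in handled arrays, where those sums were 10974 to 11335 and 11201 to 11797. Rbm3, a cold-inducible RNA-binding protein, was higher over the 3 regions by 0.19 ± 0.04 (limma adjusted p = 0.00469), with 725, 761 and 684 in stress amygdala against 614, 608 and 645 in handled amygdala.

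Between handled regions, 1 of the 64 was higher and 3 were lower in amygdala than in cortex, 9 were higher and 8 lower in hippocampus than in cortex, and 8 were higher and 9 lower in amygdala than in hippocampus. These are 6.25%, 26.6% and 26.6% of the list, where 14.7%, 25.9% and 28.4% of all probe sets passed. Fkbp5, a co-chaperone of HSP90 on the glucocorticoid receptor, was higher in hippocampus than in cortex by 1.01 ± 0.12, and Hsp90ab1, the constitutive cytosolic HSP90, by 0.21 ± 0.06. Cryab was also higher there (limma adjusted p = 2.8e-08), beside 9 of 9 oligodendrocyte markers that were higher there too. The prefoldin subunits Pfdn1, Pfdn2 and Pfdn5, which hand actin and tubulin to the CCT ring, were lower in hippocampus than in cortex, at -0.27 ± 0.08, -0.47 ± 0.05 and -0.20 ± 0.07. Hsf2 was higher in hippocampus than in cortex by 0.36 ± 0.09, and all of these passed.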

How the data were processed

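Affymetrix arrays of 18 rat brain samples were read as deposited. Values are linear intensities that the authors had scaled before deposit: the mean of each array, trimmed by 2% in each tail, lay between 150.04 and 150.05. The software that summarised the probes is not given in the sources used here. After removal of 57 control probe sets from 31099, 16 was added, log2 was taken, and probe sets with a mean at or above the 40th percentile (18625) were fitted with limma 3.58.1 in R 4.3.3 (lmFit, contrasts.fit, eBayes with a variance trend). The fit used all 18 arrays in 6 group means, with 12 residual and 10.2 prior degrees of freedom, and Benjamini-Hochberg adjustment over all probe sets. It was tested on simulated data. The array count limits the precision. Errors are SE of log2 differences or SD of 3 arrays.

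Genes were named from the platform's probe annotation: 20826 probe sets had 1 symbol, 436 several and 9780 none. Members and gene lists were chosen with earlier results of these data known. Named members are those past the threshold in a stress comparison, the members of smallest p up to 5 per region, the 8 of largest difference per direction between handled regions, and a list of standard chaperones. Pathway genes called after stress were all named, and those called between handled regions only in part. Replicate numbers did not pair stress with handled arrays of a region: deviations of the 9 same-numbered pairs correlated between -0.03 and 0.01. Whether arrays of different regions came from the same animal was not checked, and the fit treated all arrays as independent. Alternatives were other offsets, filters, scalings, probe sets and variance settings, single-region fits, a replicate block and leaving out each array.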

Additional observations from a re-analysis of the deposited data

How the results depend on the processing

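Of 38 called results of members, 22 kept their call under every alternative run, 16 lost it under at least 1, and 0 reversed. The Dnajb14 fall in amygdala was called under every alternative, with changes between -1.32 and -0.96. The count of members called after stress was 1 in amygdala, 0 in cortex and 1 for the mean of the regions under every alternative. In hippocampus it ranged from 0 to 1 when single arrays were left out: Dnajb14 passed without stress amygdala array 1, 2 or 3 or without handled hippocampus array 3, at an adjusted p of 0.0386, 0.0493, 0.0266 and 0.0426. For the amygdala against cortex difference in stress effect it ranged from 0 to 1, with Dnajb14 called without stress amygdala array 3. Between handled amygdala and cortex 8 members were called. That count was 5 without the variance trend and ranged from 5 to 10 with arrays left out (5 without handled amygdala array 1 or handled cortex array 3, 10 without stress amygdala array 1). With arrays left out it ranged from 9 to 15 between hippocampus and cortex and from 11 to 15 between amygdala and hippocampus, where it reached 18 when any probe set of a gene could count. With median centring the last comparison had 1 higher and 14 lower members, against 3 and 12. The causes of these shifts were not tested. With the replicate block, 1, 0 and 0 members were called after stress in amygdala, hippocampus and cortex, 1 for their mean, and 9, 12 and 13 between handled amygdala and cortex, hippocampus and cortex, and amygdala and hippocampus. Within a region, 0 of 9 stress arrays correlated best with the handled array of the same number. Numbers shared between regions were not checked. With 3 arrays a group, small changes of members in a single region could not be detected. A change whose interval excluded 0 could also fail the adjusted test. Dnajb14 in hippocampus, at -0.60 with an interval from -0.88 to -0.31, did not pass with all arrays (limma adjusted p = 0.0591).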

Other observations

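Some chaperone probe sets carry more than 1 gene symbol and were left out of the members. A probe set shared by Dnajb6, a J protein that suppresses protein aggregation, and pseudogene symbols read 298, 353 and 374 in stress amygdala, against 507, 469 and 543 in handled amygdala. The groups did not overlap, and the change was -0.55 ± 0.12 (limma adjusted p = 0.0157). Another such Dnajb6 probe set changed by 0.00 (limma adjusted p = 0.994), and the Dnajb6 probe set with a single symbol by 0.06, so the probe sets disagree and the direction for the gene is uncertain.

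The probe set shared by Hspa1b and Hspa1a, near-identical heat-inducible HSP70 genes, read 145, 139.7 and 144 in handled hippocampus, against 68.1, 61.8 and 45.5 in handled cortex. The hippocampal arrays lay above all cortical ones, by 1.11 ± 0.16 (limma adjusted p = 9.82e-06). Its stress changes were -0.09 in amygdala, -0.08 in hippocampus and -0.01 in cortex. A probe set shared by Hspa8, the constitutive HSP70, and another symbol changed by -0.16 in cortex after stress (limma adjusted p = 0.311). A probe set of Hsp90aa1, the inducible HSP90, and its pseudogene was higher in handled hippocampus than in handled cortex by 0.26 (limma adjusted p = 0.00249), while a brighter probe set of the same symbols gave 0.14 (limma adjusted p = 0.0909) and did not pass.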
